A study of Mus musculus with 31 samples.

Results

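The transcripts described are those of 10 plasma membrane amino acid transporter genes that supply, or could supply, milk protein synthesis: *Slc7a5*, *Slc3a2*, *Slc43a1*, *Slc1a5*, *Slc1a4*, *Slc38a2*, *Slc38a1*, *Slc7a1*, *Slc7a2* and *Slc6a14*. They were taken by gene symbol as listed, not by a cut on their values, though earlier results of these data were known. The genes counted in mouse mammary gland numbered 55379, and 9 of the 10 transporters had enough counts to be tested among 14362 genes. RNA came from the glands of 31 C57BL/6J dams on lactation day 10, with 1 library per dam. All dams received a daily intraperitoneal injection from embryonic day 13 on, either 20 mg/kg fluoxetine, a selective serotonin reuptake inhibitor, or saline. All were fed either a breeder diet with 4 mg/kg folic acid (FA) or an FA diet with 24 mg/kg, from 2 weeks before mating. By the sample labels, breeder diet + saline and FA diet + saline held 8 dams each, FA diet + fluoxetine 8 and breeder diet + fluoxetine 7. The age of the dams at collection is not given in the sources used here. Dams are named by group and by the animal number in their label. The tissue was whole gland, so the counts hold epithelium, fat, stroma and any muscle taken with it.

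During lactation the alveolar epithelium takes up amino acids from blood and builds them into caseins and whey proteins. Different carriers share this work. Sodium-coupled carriers load small neutral amino acids such as alanine and glutamine into the cell, exchangers trade these for leucine and other essential amino acids, and uniporters admit lysine and arginine along the membrane potential. Several carrier genes are induced when amino acids run short, through the transcription factor ATF4, which also induces asparagine synthetase (*Asns*).

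Total counts per dam lay between 15412542 and 36000439, with a median of 22299952. Markers of luminal epithelium had counts in every library, 8 of 8. The library of FA diet + fluoxetine replicate 3 stood apart from the other 30. Transcripts of 8 milk protein genes held 17.7% of its counts, against 49.8% to 73.3% in the others. Its summed luminal epithelium markers were 516 CPM (counts scaled to a common library size, after TMM normalization), against 762 to 1124 CPM. The milk protein share is of total counts, whereas TMM scaled this library down. *Slc3a2* had 1755 of 18919573 counts and 30.7 CPM in it, against 2114 of 22017529 and 104.9 CPM in replicate 1 of the group. Marker values of this library are on the TMM scale, and marker shares of total counts were not compared. The luminal markers did not all lie low there. *Elf5*, *Epcam* and *Stat5a* were below all other libraries, the keratins *Krt18* (149 CPM, against 46.4 to 93.6) and *Krt19* (63.2 CPM, against 6.51 to 44.7) were above all others, and the other 3 of 8, *Krt8* among them, lay within the range of the others. Its 6 fibroblast markers summed to 937 CPM, against 52.1 to 296 CPM, and its 7 adipocyte markers to 963 CPM, against 180.5 to 732 CPM. Its 8 macrophage and leukocyte markers summed to 143 CPM, against 24.6 to 80.7 CPM. Above all other libraries lay 6 of 6 fibroblast markers, 6 of 8 macrophage and leukocyte markers, but only 3 of 7 adipocyte markers. *Fabp4* alone held 675 CPM of the adipocyte sum, while *Lep* ranked 15 and *Cfd* 23 of 31. Results that rest on it are given with and without it. In tissue RNA, fewer cells of a type and less RNA per cell cannot be told apart.

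The transporters spanned more than 3 orders of magnitude in level per length. Per kilobase of annotated exons, *Slc7a5* was the most abundant at 30.1 ± 9.32 CPM per kilobase (SD, n = 31), followed by *Slc3a2* at 20.0 ± 6.54. These genes encode the light chain (LAT1) and the heavy chain (CD98) of 1 heterodimer that exchanges large neutral amino acids such as leucine. *Slc1a4*, the exchanger ASCT1 for alanine, serine and cysteine, had 11.4 ± 2.49 CPM per kilobase. *Slc38a2*, the sodium-coupled carrier SNAT2, had 10.7 ± 2.87. The glutamine exchanger ASCT2, encoded by *Slc1a5*, had 5.66 ± 3.06.

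The cationic amino acid carriers were lower, *Slc7a2* at 2.97 ± 0.786 and *Slc7a1* at 0.737 ± 0.261 CPM per kilobase. *Slc43a1*, the uniporter LAT3 for large neutral amino acids, had 0.255 ± 0.144. *Slc38a1*, encoding SNAT1, had 0.0219 ± 0.0220. The neutral and cationic amino acid carrier encoded by *Slc6a14* was nearly absent, with 20 counts over all dams, found in 7 of 31 libraries. A count of 0 allows up to 3 counts, which is 0.0524 to 0.243 CPM in the 24 libraries at 0.

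Neighbours in this order differed in how clearly they were separated. *Slc1a4* exceeded *Slc38a2* in 19 of 31 libraries, by 0.11 ± 0.40 on the log2 scale (SD). *Slc7a5* exceeded *Slc3a2* in 29 of 31, by 0.57 ± 0.42. *Slc7a2* exceeded *Slc7a1* in 31 of 31, by 2.06 ± 0.52. With the length of the canonical transcript, *Slc3a2* passed *Slc7a5* (36.6 against 32.8 CPM per kilobase) and *Slc38a2* passed *Slc1a4* (22.2 against 11.9). By that length *Slc1a4* exceeded *Slc1a5* in only 22 of 31 libraries, by 0.21 ± 0.93. The exons of *Slc3a2* share 743 bases with the antisense gene *Snhg1*, which held 8849 counts against 63111. Whether the counting used strand is not stated, so reads there cannot be assigned with certainty.

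**Figure D1:**
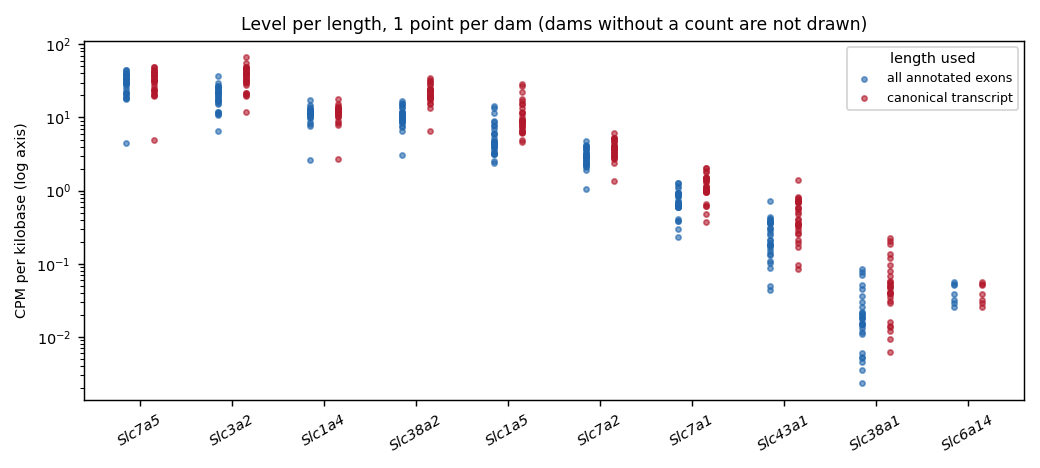
CPM per kilobase on a log axis for each transporter, with 1 point per dam and length taken from all annotated exons (blue) or the canonical transcript (red). *Slc7a5* and *Slc3a2* lie highest, at means of 30.1 and 20.0 with all exons, and *Slc6a14* has points for 7 dams.

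Stretches of sequence just before transcript starts are shown because *Asns* and several carriers varied together across dams, as given further on. The letters TGATGNAA, the core of the element that ATF4 binds in amino acid response genes, were searched on both strands of RefSeq promoter windows of 300 bases. A window ran from 250 bases before a start to 50 after it, and sequence outside the windows was not searched. They occurred in 3.97% of 32851 windows. Windows existed for 6 of 10 transporters, and 1 of these 6, *Slc1a4*, held a match. *Slc7a5*, *Slc1a5*, *Slc7a2* and *Slc38a1* had no window. Positions are in GRCm39, all on the minus strand, each printed 5′ to 3′ and ending at the start or, for *Slc1a4*, 4 bases after it. Capitals mark the match, which begins at position -23 from the start in *Asns* and lies on the opposite strand in *Slc1a4*.
*Asns*, chr6:7693210-7693289: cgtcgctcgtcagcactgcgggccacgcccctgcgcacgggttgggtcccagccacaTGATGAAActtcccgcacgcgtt
*Slc3a2*, chr19:8691262-8691341: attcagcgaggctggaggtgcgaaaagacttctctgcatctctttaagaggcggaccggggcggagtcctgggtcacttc
*Slc38a2*, chr15:96597610-96597689: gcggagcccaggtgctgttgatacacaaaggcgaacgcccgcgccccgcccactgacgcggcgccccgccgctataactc
*Slc1a4*, chr11:20282710-20282789: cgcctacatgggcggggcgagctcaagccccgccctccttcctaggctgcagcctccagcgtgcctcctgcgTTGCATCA

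The first comparison asks whether fluoxetine, the FA diet or their combination altered transporter transcripts. By the quasi-likelihood (QL) test of edgeR, Benjamini-Hochberg adjusted over 14362 genes, 0 of 9 transporters passed an FDR of 10% for fluoxetine (0.0209% of all genes passed), 0 for the FA diet (0%) and 0 for the interaction (0%). At an unadjusted p of 0.05 or below, 1 of 9 transporters passed for fluoxetine (*Slc1a5*), where 9.92% of all genes did. For the FA diet 0 of 9 passed, with 5.08% of all genes, and for the interaction 1 of 9 passed (*Slc7a5*), with 3.84%. DESeq2 and the likelihood ratio test also called 0 of 9 at this FDR in each. The median log2 fold change of the 9 was -0.14 for fluoxetine (all genes 0.02), -0.04 for the FA diet (all genes 0.02) and -0.05 for the interaction (all genes 0.03). In every pair of groups that differed by drug or by diet, the ranges over dams overlapped for each transporter. The share of all genes with overlapping ranges was not counted, so this overlap is not shown to be particular to the transporters.

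**Figure D2:**
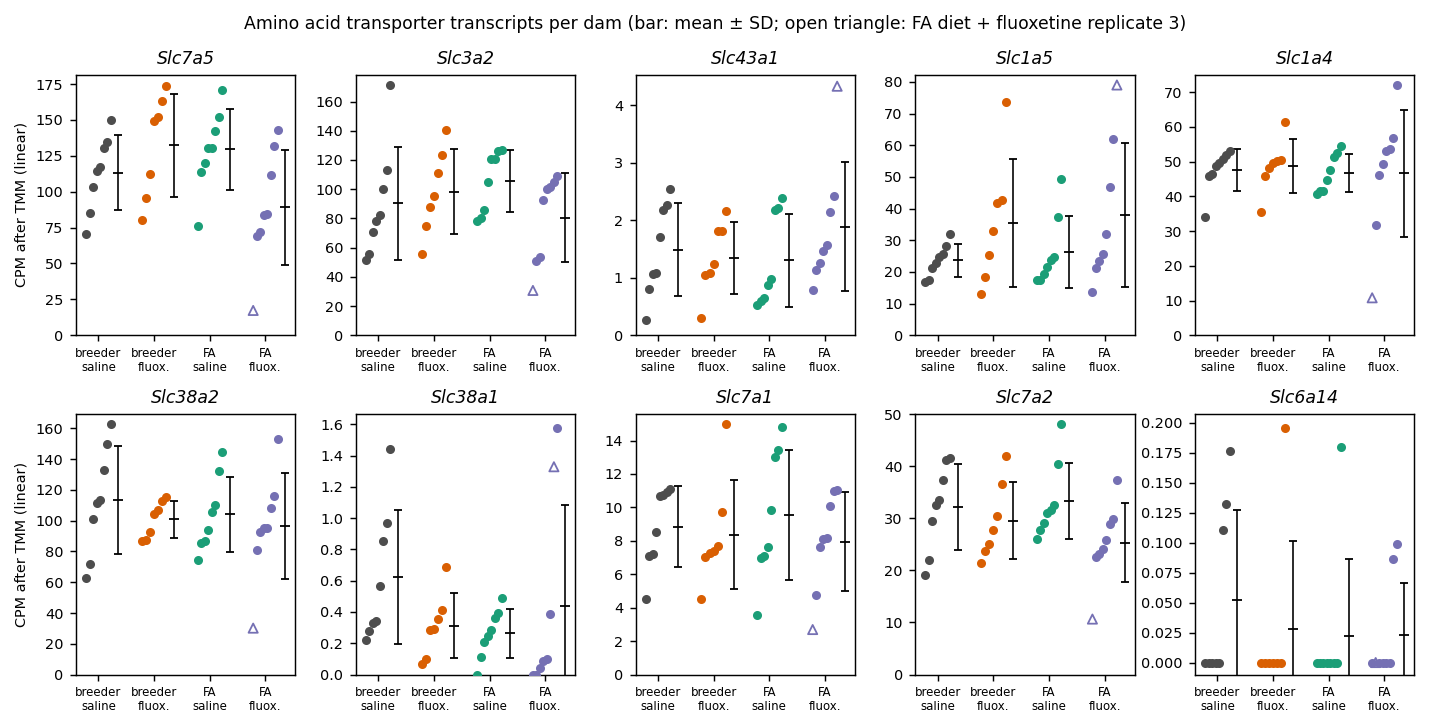
CPM after TMM normalization on linear axes for the 10 transporters, 1 point per dam in each of the 4 groups, with bars for mean ± SD and an open triangle for FA diet + fluoxetine replicate 3. The triangle is the lowest of the 31 points for *Slc7a5*, *Slc3a2*, *Slc1a4*, *Slc38a2*, *Slc7a1* and *Slc7a2*, and the highest for *Slc1a5* and *Slc43a1*.

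*Slc7a5* (ENSMUSG00000040010, GRCm39 chr8:122607884-122634433) had from 70.6 to 149.8 CPM with a median of 116 in breeder diet + saline, and from 80.5 to 174 with a median of 149 in breeder diet + fluoxetine. On the FA diet it had from 76.2 to 171 CPM with a median of 130.4 under saline, and from 17.3 to 143 with a median of 84.0 under fluoxetine. Of the 8 dams of FA diet + fluoxetine, 0 lay above the median of breeder diet + fluoxetine and 2 above that of FA diet + saline. Group means were 113 ± 26.2 (SD, n = 8), 132 ± 35.9 (n = 7), 129.6 ± 28.2 (n = 8) and 89.1 ± 39.9 CPM (n = 8) in the same order.

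The fluoxetine effect on *Slc7a5* differed between the diets by -0.77 on the log2 scale (SE 0.35, 95% interval -1.48 to -0.05, unadjusted p = 0.0374 by edgeR's QL test, Benjamini-Hochberg adjusted p = 0.977). Under the FA diet the fluoxetine effect was -0.54 (SE 0.25, unadjusted p = 0.0350, adjusted p = 0.475 by the same method), and 9.98% of all genes lay at or below an unadjusted p of 0.05 there. In breeder-fed dams it was 0.22 (SE 0.25, adjusted p = 0.99999), with 4.39% of genes. Under fluoxetine the FA diet effect was -0.57 (SE 0.25, unadjusted p = 0.0313, adjusted p = 0.9999), with 3.75% of genes. Without FA diet + fluoxetine replicate 3 these values were -0.62 for the interaction (unadjusted p = 0.0226), -0.40 for fluoxetine on the FA diet (unadjusted p = 0.0378) and -0.43 for the FA diet under fluoxetine (unadjusted p = 0.0314). None of them passed the FDR, with or without that dam. In the 31 fits that each left out 1 dam, the interaction of *Slc7a5* ran from -0.90 to -0.62, and its unadjusted p exceeded 0.05 in 10.

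*Slc3a2* (chr19:8684245-8701108), the partner chain, had from 51.7 to 171 CPM with a median of 80.02 in breeder diet + saline, and from 55.5 to 140.3 with a median of 95.4 in breeder diet + fluoxetine. Dams on the FA diet had from 78.5 to 127 CPM with a median of 113 under saline and from 30.7 to 109 with a median of 96.4 under fluoxetine. In FA diet + fluoxetine, 0 of 8 dams exceeded the median of FA diet + saline. The interaction was -0.51 on the log2 scale (SE 0.34, adjusted p = 0.977), and -0.41 (adjusted p = 0.997) without FA diet + fluoxetine replicate 3. The main effects were -0.14 for fluoxetine (SE 0.17, adjusted p = 0.828) and -0.03 for the FA diet (SE 0.17, adjusted p = 0.997), all by edgeR's QL test, Benjamini-Hochberg adjusted.

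*Slc1a5* (chr7:16515265-16532731) was the transporter with the smallest p for fluoxetine. It had from 17.0 to 31.9 CPM with a median of 23.8 in breeder diet + saline, and from 13.0 to 73.6 with a median of 32.8 in breeder diet + fluoxetine. On the FA diet it had from 17.3 to 49.3 CPM with a median of 22.6 under saline, and from 13.6 to 79.0 with a median of 28.8 under fluoxetine. The upper values set the fluoxetine groups apart, since their lowest dams lay below the lowest saline dams on both diets. Above the saline median lay 5 of 7 fluoxetine dams on the breeder diet and 6 of 8 on the FA diet.

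The fluoxetine difference of *Slc1a5* was 0.55 on the log2 scale, a ratio of 1.47 (SE 0.23, 95% interval 0.09 to 1.02, unadjusted p = 0.0219, adjusted p = 0.439 by edgeR's QL test, Benjamini-Hochberg adjusted). It was 0.58 on the breeder diet and 0.53 on the FA diet, with an interaction of -0.05 (SE 0.46, adjusted p = 0.995). Without FA diet + fluoxetine replicate 3 the difference was 0.42 (unadjusted p = 0.0665). It also passed an unadjusted p of 0.05 no longer without breeder diet + fluoxetine replicate 9, the dam with 73.6 CPM, and its range over the 31 fits that each left out 1 dam was 0.40 to 0.65.

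The summed adipocyte markers were high in several dams of high *Slc1a5*, a comparison chosen after these values were seen. The 3 dams with the most *Slc1a5*, which were FA diet + fluoxetine replicate 3, breeder diet + fluoxetine replicate 9 and FA diet + fluoxetine replicate 6, ranked 1, 7 and 3 of 31 for the summed adipocyte markers. The dams ranked 2, 4, 5 and 6 for that sum ranked 12, 6, 5 and 13 for *Slc1a5*. Those at 12 and 13 were breeder diet + saline replicates 3 and 6. In FA diet + fluoxetine replicate 3, *Fabp4* alone held 675 CPM of that sum. On the breeder diet the sum of the 7 markers ran from 294 to 732 CPM under saline and from 180.5 to 665 under fluoxetine, and on the FA diet from 341 to 524 under saline and from 269.6 to 963 under fluoxetine. All 7 had counts in all 31 libraries, and 0 of 7 passed the FDR for fluoxetine, with 1 at an unadjusted p of 0.05 or below, where 9.92% of all genes were. Their part in the *Slc1a5* difference was not tested.

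*Slc1a4* was the steadiest of the tested transporters, with a coefficient of variation of 21.7% over 31 dams. It had from 34.0 to 52.9 CPM with a median of 49.2 in breeder diet + saline, and from 35.4 to 61.5 with a median of 49.7 in breeder diet + fluoxetine. Dams on the FA diet had from 40.7 to 54.5 CPM with a median of 46.2 under saline, and from 10.8 to 72.0 with a median of 51.1 under fluoxetine. Its fluoxetine difference was 0.02 on the log2 scale (SE 0.14, 95% interval -0.27 to 0.30) and its FA diet difference -0.04 (SE 0.14, 95% interval -0.33 to 0.24). FA diet + fluoxetine held both the highest dam of all, at 72.0 CPM, and the lowest 2, at 10.8 and 31.8 CPM, while the other groups lay between 34.0 and 61.5 CPM.

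*Slc38a2* had from 62.4 to 163 CPM with a median of 112 in breeder diet + saline, and from 86.9 to 115 with a median of 104 in breeder diet + fluoxetine. On the FA diet it had from 74.4 to 145 CPM with a median of 100.03 under saline, and from 30.2 to 153 with a median of 95.4 under fluoxetine. The spread within breeder diet + saline exceeded any shift between groups. The fluoxetine difference was -0.14 on the log2 scale (SE 0.15, 95% interval -0.45 to 0.17). The FA diet difference was -0.09 (SE 0.15, 95% interval -0.40 to 0.21).

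*Slc38a1*, the second carrier of this type, held 331 counts over all dams, so its values are coarse. It had from 0.220 to 1.44 CPM with a median of 0.454 in breeder diet + saline, and from 0.0672 to 0.686 with a median of 0.288 in breeder diet + fluoxetine. Dams on the FA diet had from 0 to 0.488 CPM with a median of 0.268 under saline, and from 0 to 1.58 with a median of 0.0930 under fluoxetine. FA diet + fluoxetine thus held both the highest dam and the lowest median. The interaction was 1.71 on the log2 scale with a wide interval, -0.43 to 3.85 (SE 1.05, adjusted p = 0.977 by edgeR's QL test, Benjamini-Hochberg adjusted), and 1.19 (SE 1.03) without FA diet + fluoxetine replicate 3.

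Among the cationic carriers, *Slc7a2* had the second smallest p for fluoxetine. It had from 19.1 to 41.6 CPM with a median of 33.0 in breeder diet + saline, and from 21.3 to 41.9 with a median of 27.7 in breeder diet + fluoxetine. On the FA diet it had from 26.05 to 48.2 CPM with a median of 31.3 under saline, and from 10.6 to 37.2 with a median of 25.0 under fluoxetine. Of the fluoxetine dams, 2 of 7 on the breeder diet and 1 of 8 on the FA diet exceeded the saline median. The fluoxetine difference was -0.26 on the log2 scale (SE 0.14, 95% interval -0.53 to 0.02, unadjusted p = 0.0643, adjusted p = 0.530 by edgeR's QL test, Benjamini-Hochberg adjusted). Within the FA diet it was -0.40 (unadjusted p = 0.0424), and -0.30 (unadjusted p = 0.0784) without FA diet + fluoxetine replicate 3.

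*Slc7a1* had from 4.54 to 11.1 CPM with a median of 9.61 in breeder diet + saline, and from 4.54 to 14.98 with a median of 7.39 in breeder diet + fluoxetine. Dams on the FA diet had from 3.54 to 14.8 CPM with a median of 8.76 under saline, and from 2.69 to 11.02 with a median of 8.15 under fluoxetine. The groups overlapped over most of their ranges. The fluoxetine difference was -0.18 on the log2 scale (SE 0.19, 95% interval -0.56 to 0.21) and the FA diet difference 0.02 (SE 0.19, 95% interval -0.37 to 0.41).

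*Slc43a1* had from 0.264 to 2.55 CPM with a median of 1.40 in breeder diet + saline, and from 0.296 to 2.16 with a median of 1.24 in breeder diet + fluoxetine. On the FA diet it had from 0.518 to 2.40 CPM with a median of 0.929 under saline, and from 0.794 to 4.33 with a median of 1.53 under fluoxetine. The dam at 4.33 CPM was replicate 3 of the last group. The interaction of *Slc43a1* was 0.67 on the log2 scale (SE 0.59), and 0.35 (SE 0.56) without that dam. *Slc6a14*, below the filter, had at most 0.195 CPM in any dam and was not tested.

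**Figure D3:**
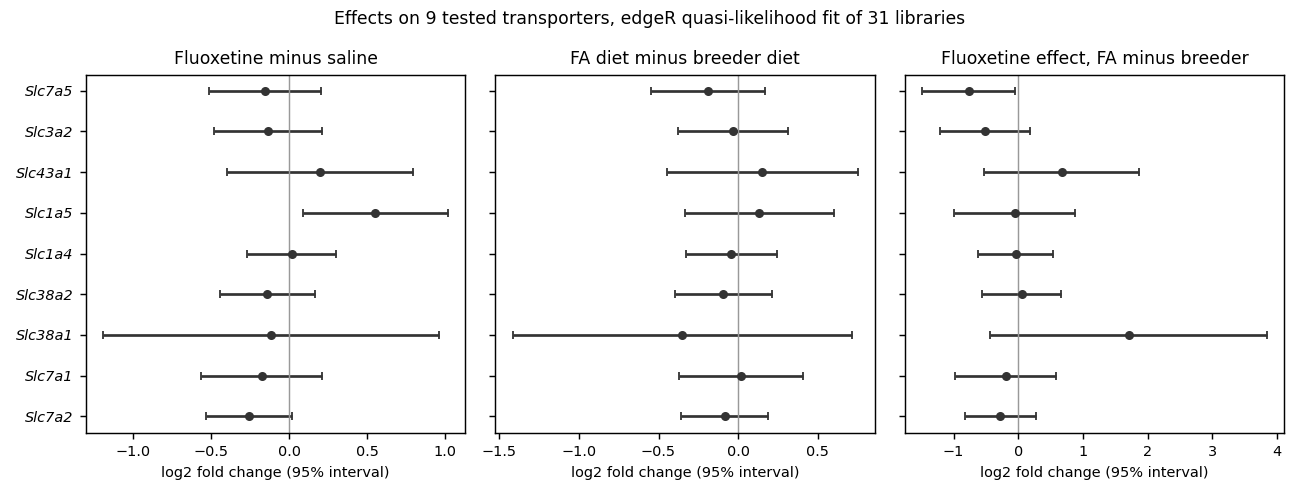
Log2 fold changes (points) with 95% intervals (bars) of the 9 tested transporters for fluoxetine minus saline, FA diet minus breeder diet, and the difference of the fluoxetine effect between diets, with a separate scale in each panel. The interval leaves out 0 for *Slc1a5* under fluoxetine (0.09 to 1.02) and for *Slc7a5* in the interaction (-1.48 to -0.05).

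On CPM after TMM normalization, the transporters divided into opposite extremes in FA diet + fluoxetine replicate 3. *Slc7a5* stood at 17.3 CPM there, 4.87-fold below the median of the other 7 dams of its group. *Slc1a4* stood at 10.8 CPM, 4.91-fold below, and *Slc3a2* at 30.7 CPM, 3.27-fold below. *Slc38a2* was 3.16-fold, *Slc7a1* 3.04-fold and *Slc7a2* 2.43-fold below that median, and each of these 6 was at its lowest CPM of 31 dams. These folds are on CPM after TMM normalization, not on shares of total counts. *Slc3a2* had 1755 of 18919573 counts in that library and 2114 of 22017529 in replicate 1 of the group. *Slc38a2* had 1726 and 2177 counts, *Slc7a5* 988 and 2661, and *Slc1a4* 617 and 1143. *Slc7a1* had 154 and 165 counts, and *Slc7a2* 609 and 603. By share of total counts *Slc3a2* and *Slc38a2* were thus close in these dams, and *Slc7a1* and *Slc7a2* were somewhat higher in replicate 3. *Slc7a5* and *Slc1a4* stayed lower in replicate 3. Shares in the other dams of the group were not compared. On CPM after TMM, *Slc1a5* was 3.07-fold above the median of the group and *Slc43a1* 2.94-fold above, both at their highest of 31. The luminal markers on both sides of the other libraries and the high adipocyte, fibroblast, and macrophage and leukocyte sums of the same library are given above, and their part in these levels was not tested.

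**Figure D4:**
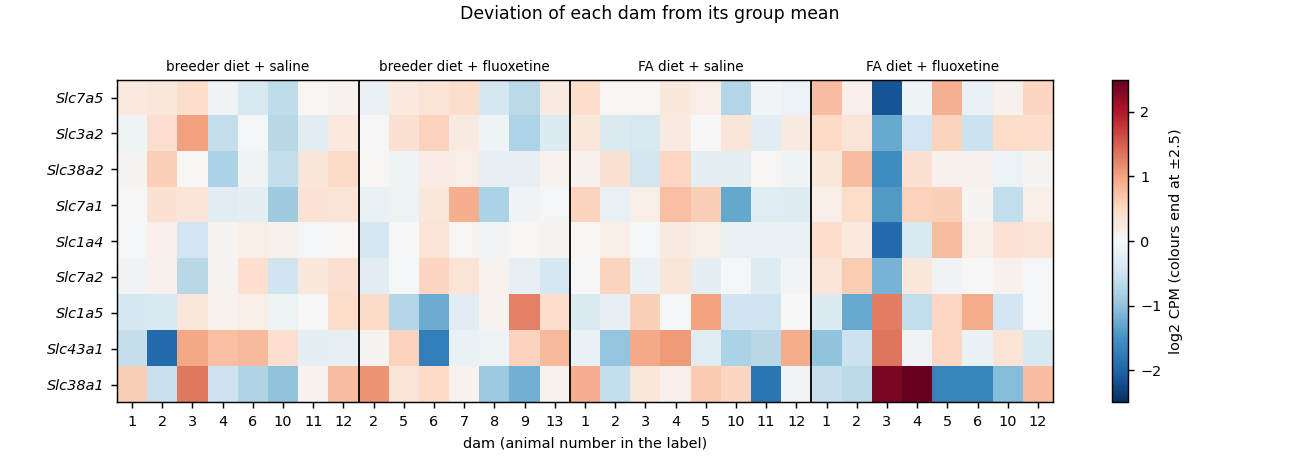
Deviation of each dam's log2 CPM from its group mean for the 9 tested transporters (rows) in 31 dams (columns, by group and animal number), red above and blue below the mean. The column of FA diet + fluoxetine replicate 3 is blue for 6 transporters and red for *Slc1a5*, *Slc43a1* and *Slc38a1*.

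Whether transporters varied together from dam to dam was examined on deviations from the group means, in 24 relations with permutation p-values (100000 resamples within groups) adjusted over the 24. The chains of the leucine exchanger went together. *Slc7a5* and *Slc3a2* had Pearson's r = 0.727 and Spearman's rho = 0.723 over 31 dams (permutation p = 3e-05 and 1e-05, adjusted p = 0.00024 for each). Without FA diet + fluoxetine replicate 3, r was 0.615 (permutation, adjusted p = 0.0052), and without the 2 dams farthest from the median of *Slc7a5* it was 0.580. Within groups, r was 0.761 under saline and 0.756 under fluoxetine on the breeder diet, and -0.104 under saline and 0.905 under fluoxetine on the FA diet.

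*Asns*, at 52.7 ± 12.3 CPM (SD, n = 31), marks the amino acid response, and its relation to the transporters was positive for most. With *Slc7a5* r was 0.852 and rho 0.683 (permutation p = 5e-05 and 8e-05, adjusted p = 0.0003 and 0.00064), and without FA diet + fluoxetine replicate 3 r was 0.601 (adjusted p = 0.00612). With *Slc38a2* r was 0.828 and rho 0.702 (permutation p = 3e-05 and 8e-05, adjusted p = 0.00024 and 0.00064), and 0.637 without that dam (adjusted p = 0.0052). *Asns* and *Slc38a2* were related with r between 0.552 and 0.898 within each of the 4 groups.

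*Slc3a2* followed *Asns* with r = 0.716 and rho = 0.690 (permutation p = 3e-05 and 0.00012, adjusted p = 0.00024 and 0.00072), and with 0.634 (adjusted p = 0.0052) without that dam. *Slc7a2* did so with r = 0.718 and rho = 0.612 (permutation p = 0.00038 and 0.00039, adjusted p = 0.00182 and 0.00187), and with 0.504 (adjusted p = 0.0333) without it. Without the 2 dams farthest from the median of *Asns*, r was 0.538 for *Slc7a5*, 0.577 for *Slc38a2*, 0.583 for *Slc3a2* and 0.435 for *Slc7a2*, the last no longer past 0.05 after adjustment (adjusted p = 0.0724, permutation).

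*Slc1a4*, the 1 of 6 transporters with a promoter window that held the ATF4 letters there, had r = 0.826 and rho = 0.506 with *Asns* (permutation p = 0.00453 and 0.0158, adjusted p = 0.0109 and 0.0344). Without FA diet + fluoxetine replicate 3 r was 0.363 (permutation, adjusted p = 0.158), and without the 2 dams farthest from the median of *Asns* it was 0.438 (permutation, adjusted p = 0.0858), so this relation rested on that library. *Slc1a5* ran opposite to *Asns*, with r = -0.553 and rho = -0.543 (permutation p = 0.00171 and 0.0023, adjusted p = 0.00513 and 0.00789). Without FA diet + fluoxetine replicate 3 r was -0.449 and missed 0.05 after adjustment (permutation, adjusted p = 0.052). Without the 2 dams farthest from the median of *Asns* it was -0.510 (permutation, adjusted p = 0.0356). It was negative within each of the 4 groups, from -0.692 to -0.176.

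**Figure D5:**
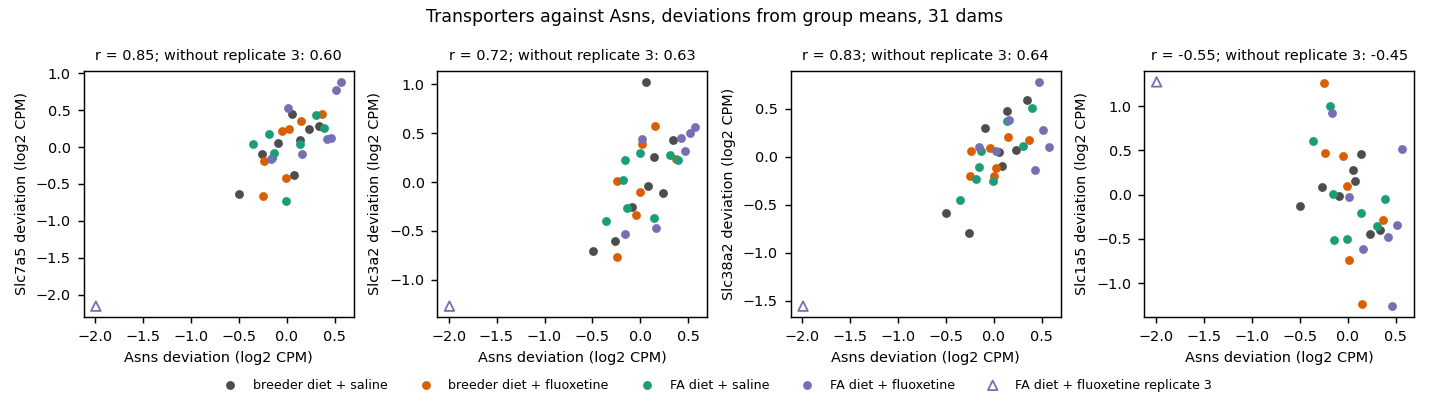
Deviations from group means in log2 CPM of 4 transporters (y axes) against *Asns* (x axes), 1 point per dam, coloured by group, with FA diet + fluoxetine replicate 3 as an open triangle. *Slc7a5*, *Slc3a2* and *Slc38a2* rise with *Asns* (r = 0.601, 0.634 and 0.637 without the triangle) and *Slc1a5* runs the other way (r = -0.449).

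Of the 24 relations, 15 passed 0.05 after adjustment with all 31 dams and 5 without FA diet + fluoxetine replicate 3. The 5 are those of *Slc7a5* with *Slc3a2* and of *Asns* with *Slc7a5*, *Slc3a2*, *Slc38a2* and *Slc7a2*. The share of milk protein transcripts was related to *Slc7a5* with r = 0.666 over 31 dams (rho = 0.246, permutation p = 0.065 and 0.18, adjusted p = 0.0917 and 0.24), and r was -0.03 without that dam. With *Slc1a4* it had r = 0.787 (rho = 0.418, permutation p = 0.0295 and 0.0755, adjusted p = 0.0472 and 0.123), and 0.116 without that dam, so these relations rested on 1 library. With *Slc3a2* it had r = 0.606 (rho = 0.537, permutation p = 0.00142 and 0.00114, adjusted p = 0.00513 and 0.00456), and 0.401 without that dam (adjusted p = 0.052). Without the 2 dams farthest from the median of the milk protein share, r was 0.0738 for *Slc7a5*, 0.208 for *Slc1a4* and 0.406 for *Slc3a2*.

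The genes whose deviations were most like each transporter over 31 dams are given by Pearson's r as a description. *Slc7a1* was most like *Lars1* (r = 0.854) and *Eprs1* (r = 0.835), which encode aminoacyl-tRNA synthetases, and these remained its first and second without the 2 libraries of lowest milk protein share (r = 0.812 and 0.798, n = 29). *Slc1a5* was most like *Fmo1* (r = 0.872, and 0.853 over 29 dams), followed by *Sh2b2* (0.814) and *Gsdmd* (0.800). *Slc7a5* was most like *Olah* (0.884), which encodes a thioesterase of fatty acid synthesis, *Lyrm9* (0.862) and *Asns* (0.852). Over 29 dams *Olah* ranked 6 of all genes for likeness to *Slc7a5* (r = 0.696), and *Asns* 43 (r = 0.611).

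*Slc3a2* was most like *Slc35b3* (0.832), *Azin1* (0.819) and *Glt28d2* (0.817), at 0.768, 0.747 and 0.739 over 29 dams. *Slc38a2* was most like *Kcnk6* (0.893), *Mia3* (0.886) and *Erap1* (0.884), which over 29 dams ranked 10, 17 and 29 (0.79, 0.78 and 0.768). *Slc1a4* was most like *Pdhb* (0.910), *Ap1m2* (0.902) and *Olah* (0.899), which dropped to 0.644, 0.562 and 0.583 over 29 dams. *Slc7a2* was most like *Plcxd2* (0.855), *Retreg1* (0.853) and *Slc31a1* (0.849), which over 29 dams ranked 4, 6 and 33 (0.812, 0.794 and 0.743). *Slc38a1* and *Slc43a1* had lower values, at most 0.723 with *Nopchap1* and 0.691 with *Car3* (0.681 and 0.653 over 29 dams).

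Genes of the wider pathway were counted in lists. Of 26 other amino acid transporters, 20 were tested and 0 passed the FDR for fluoxetine, the FA diet or the interaction in edgeR's QL test. At an unadjusted p of 0.05 or below, 3 of these 20 were lower under fluoxetine and 0 higher, against 428 lower and 997 higher of all 14362 genes. *Slc1a3*, a glutamate transporter, had from 12.8 to 25.3 CPM over 16 saline dams and from 5.49 to 22.5 over 15 fluoxetine dams, a log2 difference of -0.39 (SE 0.14, Benjamini-Hochberg adjusted p = 0.383). Of 21 amino acid response genes, all tested, 0 passed the FDR and 1 had an unadjusted p of 0.05 or below for the interaction, a share near the 3.84% of all genes. This was *Mthfd2*, a mitochondrial folate enzyme induced by ATF4, whose group medians on the breeder diet were 1.60 CPM under saline and 3.47 under fluoxetine, and on the FA diet 2.38 and 2.05. Its interaction was -1.35 on the log2 scale (SE 0.47, edgeR's QL test, Benjamini-Hochberg adjusted p = 0.977).

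Of 26 genes of mTORC1, the kinase complex that senses leucine, 25 were tested and 0 passed the FDR. At an unadjusted p of 0.05 or below in edgeR's QL test lay 4 for fluoxetine, 3 lower and 1 higher, with 9.92% of all genes. For the interaction 2 did, with 3.84% of all genes. *Rraga*, a small GTPase of that sensing, had a fluoxetine difference of -0.42 (SE 0.14) and *Lamtor5*, a part of its lysosomal anchor, an interaction of -0.51 (SE 0.17). Of 17 genes of amino acid breakdown, 15 were tested and 0 passed the FDR for fluoxetine in edgeR's QL test. At an unadjusted p of 0.05 or below in that test lay 4 of the 15, 3 lower and 1 higher, again with 9.92% of all genes. *Bckdha*, a subunit of the enzyme that commits leucine, isoleucine and valine to oxidation, had from 8.47 to 22.6 CPM over saline dams and from 4.44 to 23.3 over fluoxetine dams. Its difference was -0.64 on the log2 scale (SE 0.18, edgeR's QL test, Benjamini-Hochberg adjusted p = 0.299). DESeq2 gave it an adjusted p of 0.0960, which passed the FDR. Of 20 aminoacyl-tRNA synthetases and 8 milk protein genes, all tested, 0 passed the FDR for fluoxetine, the FA diet or the interaction. *Acta2*, a contractile gene of myoepithelium, had differences of -0.38 for fluoxetine (SE 0.13) and 0.35 for the FA diet (SE 0.13), neither past the FDR.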

How the data were processed

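Polyadenylated mammary RNA was sequenced in paired ends. Per the labels and the study's methods, the authors trimmed reads with Trim Galore 0.4.4, used HISAT2 to map them to GRCm39, and assigned them to genes with htseq-count (intersection-nonempty) and deposited raw counts. Annotation release and strand option are not given in the sources used here. Symbols came from GENCODE vM39 (667 of 55379 IDs had none) and promoter windows from RefSeq (GRCm38.p6), placed on GRCm39 by exact match. In R 4.3.3, edgeR 4.0.16 removed 41017 genes by filterByExpr, normalized by TMM and fitted 4 group means with robust quasi-likelihood tests. P-values were adjusted by Benjamini-Hochberg over 14362 genes (FDR 10%). The study's methods state likelihood ratio tests, which were an alternative, as was DESeq2 1.42.0. Log2 CPM carry a prior count of 2. The common dispersion was 0.169, more than the counting variance at the mean count of every member but *Slc6a14*. Limits for counts of 0 cover counting error only. No libraries of the same group were duplicates (lowest chi-square per degree of freedom 15.8), and pairs across groups were not compared. The methods give 8 dams of breeder diet + fluoxetine and 7 of FA diet + fluoxetine, and groups here follow the labels. Members, lists and tests were chosen with earlier results of these data known. Named were all members, the genes of the relations, of each other list the genes past the FDR or up to 3 of smallest p at 0.01 or below, and the 3 genes most like each tested member. *Snhg1*, the luminal markers and the fat markers were named after their values were seen. Alternatives were other filters, upper quartile and RLE scaling, removal of the 20 most abundant genes, no robust estimation, a block on animal number, effects within each level of the other factor and each dam left out. The 2 libraries of lowest milk protein share left out together, FA diet + fluoxetine replicate 3 left out of the within-level effects, and canonical transcript length were chosen after seeing the data.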

Additional observations from a re-analysis of the deposited data

Results flagged for a closer look

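In 44 groups of dams tested for 1 extreme sample by Dixon's criterion at the 95% level, 6 samples met the criterion, and chance gives about 1 in 20 groups. *Slc1a4* was 33.95 CPM in breeder diet + saline replicate 3, with the next dam at 45.92. *Slc43a1* was 4.335 CPM in FA diet + fluoxetine replicate 3, with the next at 2.42. *Slc6a14* was 0.1955 CPM in breeder diet + fluoxetine replicate 8 and 0.1801 CPM in FA diet + saline replicate 10, where the other dams of each group had 0. These are 4 and 3 counts. With all others at 0 a single dam meets the criterion by construction, and a 0 allows up to 3 counts, so these dams are not shown to stand apart. The share of milk protein transcripts was 49.81% in breeder diet + fluoxetine replicate 13, with the next at 62.7%, and 17.72% in FA diet + fluoxetine replicate 3, with the next at 63.7%.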

How the results depend on the processing

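Over all genes, 3 passed the FDR for fluoxetine in the reported fit, 70 with DESeq2, 45 with the likelihood ratio test, 1 with no filter and 0 with the replicate block. The count of transporters past the FDR stayed at 0 for fluoxetine, the FA diet and the interaction under every alternative run. Whether animal numbers paired the dams was not settled. Of 28 same-numbered pairs across groups, 12 had a correlation of deviations over 0.1 (median 0.0791, range -0.22 to 0.429). The median over 332 other pairs across groups was -0.00699. Of 27 libraries, 4 correlated best with their own number, and no test was run on these values. Animal numbers 7, 8, 9 and 13 occurred only in breeder diet + fluoxetine. With the replicate block those dams were fitted exactly and had no weight in any contrast. The cause of the changes below was not tested.

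The count at an unadjusted p of 0.05 or below for fluoxetine (1) was 2 with no filter, 0 without the 2 libraries of lowest milk protein share, 0 within the breeder diet, 2 within the FA diet and 0 to 2 with 1 dam left out. It was 0 without breeder diet + fluoxetine replicate 9 or FA diet + fluoxetine replicate 3, and 2 without breeder diet + fluoxetine replicates 6 or 7, breeder diet + saline replicates 3 or 10, or FA diet + fluoxetine replicate 2. For the FA diet (0) it was 1 with the replicate block and 1 under fluoxetine. For the interaction (1) it was 0 with the replicate block and 0 to 2 with 1 dam left out. It was 0 without breeder diet + fluoxetine replicates 5, 6, 7 or 13, breeder diet + saline replicates 6 or 10, FA diet + fluoxetine replicates 4 or 6, or FA diet + saline replicates 1 or 4, and 2 without breeder diet + saline replicate 3. Relations past 0.05 (15) numbered 6 without the 2 farthest libraries, 6 without the 2 of lowest milk protein share and 5 to 16 with 1 dam left out, the 5 without FA diet + fluoxetine replicate 3.

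Log2 fold changes that turned for fluoxetine were *Slc7a5* 0.22, *Slc3a2* 0.12 and *Slc43a1* -0.14 within the breeder diet, *Slc1a4* -0.0054 and *Slc38a1* 0.74 within the FA diet, *Slc1a4* -0.22 and *Slc38a1* 0.34 with the replicate block, and *Slc43a1* -0.030 without the 2 libraries of lowest milk protein share. The *Slc1a5* fluoxetine value kept its sign but fell from 0.55 to 0.17 with the replicate block. That block took breeder diet + fluoxetine replicate 9, the dam with 73.6 CPM, out of the contrast. For the FA diet the values that turned were *Slc7a5* 0.20, *Slc3a2* 0.22, *Slc7a2* 0.054 and *Slc43a1* -0.18 under saline, *Slc7a1* -0.080 and *Slc38a1* 0.50 under fluoxetine, and *Slc1a4* 0.048 with the block and 0.028 without the 2 libraries. For the interaction they were *Slc1a5* 0.50, *Slc1a4* 0.10, *Slc7a1* 0.12 and *Slc38a1* -1.02 with the block, and *Slc1a4* 0.12 without the 2 libraries.

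With 1 dam left out, fluoxetine values ran from -0.039 to 0.081 for *Slc1a4* and -0.38 to 0.029 for *Slc38a1*. FA diet values ran from -0.085 to 0.065 for *Slc3a2*, -0.10 to 0.028 for *Slc1a4*, -0.042 to 0.12 for *Slc7a1* and -0.0015 to 0.23 for *Slc43a1*. Interactions ran from -0.31 to 0.23 for *Slc1a5*, -0.17 to 0.096 for *Slc1a4*, -0.32 to 0.011 for *Slc7a1* and -0.070 to 0.18 for *Slc38a2*. *Slc38a1* could not be fitted without some dams, since it then missed the filter.

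Relations that turned were *Slc1a5* with *Slc7a5* (0.00315 without the 2 farthest libraries), *Slc38a1* with *Slc38a2* (Spearman 0.0365, block 0.01197, without the 2 libraries of lowest milk protein share 0.206), *Asns* with *Slc38a1* (0.0651 without those 2), and milk protein share with *Slc7a1* (-0.161) and *Slc38a1* (0.114) under both removals. With 1 dam left out, r ran from -0.273 to 0.206 for *Slc38a1* with *Slc38a2*, -0.421 to 0.00672 for *Slc1a4* with *Slc1a5*, -0.414 to 0.0645 for *Asns* with *Slc38a1*, and for milk protein share from -0.0274 to 0.728 with *Slc7a5*, -0.109 to 0.495 with *Slc7a1*, -0.456 to 0.0733 with *Slc38a1* and -0.0327 to 0.645 with *Slc38a2*. *Bckdha* passed the FDR for fluoxetine with DESeq2, as given above, and by edgeR's QL test in 1 fit with 1 dam left out (adjusted p = 0.0869).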
